A study of Mus musculus with 24 samples.

Results

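The 10 major urinary protein genes Mup1, Mup3, Mup7, Mup11, Mup12, Mup13, Mup15, Mup17, Mup20 and Mup21 were followed in mouse liver and in inguinal white adipose tissue (iWAT, the subcutaneous fat of the groin). They were taken by gene name from a table of 54532 genes in which 48 rows belong to the family, 10 of them these genes and 38 others. They were chosen by their measured difference between KO and WT livers on Western diet in earlier results of these data, so that difference, and the diet comparisons that share its livers, are described here without p-values, and counts of genes past the threshold in them stand only beside the share of all genes. The study compared Mrs2 KO mice with WT mice; Mrs2 encodes the channel through which magnesium enters mitochondria. Mice of both genotypes were fed a Western diet (WD), an obesogenic diet, or a standard chow diet for 52 weeks from 13 weeks of age. RNA from 50 mg of powdered whole liver and from 100 mg of powdered iWAT, with its lymph nodes removed, was sequenced with poly-T capture and read pairs of 150 bases. Each of the 8 groups had 3 mice: KO on WD, WT on WD, KO on chow and WT on chow, in each tissue. The labels used here name neither the strain nor the kind of knockout allele and do not say whether the KO reaches every cell type.

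Major urinary proteins are small lipocalins, barrel-shaped carriers that hold hydrophobic ligands. Mouse liver secretes them into the blood, from which they pass into the urine and bind pheromones there. Their genes form a tandem array of near-identical copies and pseudogenes, and their hepatic expression is known to be higher in males and to depend on pulsatile growth hormone acting through STAT5B, on androgen and on glucocorticoid. Mup20 encodes darcin, a male urinary protein that acts as a pheromone itself, and circulating major urinary protein has been studied in mice as a factor in glucose and lipid metabolism.

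All 10 genes lay on the minus strand of chromosome 4, between 60066469 and 62150863 of mm10, a stretch of 2.08 Mb. All 10 had the same gene coordinates in the mm10 table and in GENCODE vM21 (GRCm38), so transcript sequences from GENCODE were used beside them. The coding sequences fell into 1 group of 7 near-identical genes and 3 genes that stood apart. Mup1, Mup7, Mup11, Mup12, Mup13, Mup15 and Mup17 shared 98.3% to 99.6% of their coding bases with each other, which is 2 to 9 differing positions. Mup20 shared 90.1% to 91.3% with that group, Mup21 83.6% to 84.7% and Mup3 82.3% to 83.6%, while Mup3 and Mup21 shared 94.7% with each other. A stretch of 60 coding bases from the 10 genes is shown because it makes this structure visible. It begins at coding base 244 in Mup1, Mup7, Mup12, Mup13, Mup15 and Mup17, at 247 in Mup11, Mup20 and Mup21 and at 256 in Mup3, counted from 1 at the start codon, and is the gap-free stretch with the most varying positions (20 of 60). Capitals mark a base that differs from the commonest base at that position among the 10 genes, 5′ to 3′ on the coding strand.
Mup1: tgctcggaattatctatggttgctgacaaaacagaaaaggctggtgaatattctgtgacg
Mup11: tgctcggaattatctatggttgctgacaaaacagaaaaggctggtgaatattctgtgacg
Mup12: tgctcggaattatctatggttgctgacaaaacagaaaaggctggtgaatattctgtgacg
Mup15: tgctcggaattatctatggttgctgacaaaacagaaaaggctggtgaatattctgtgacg
Mup7: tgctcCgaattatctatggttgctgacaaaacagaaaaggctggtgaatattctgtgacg
Mup17: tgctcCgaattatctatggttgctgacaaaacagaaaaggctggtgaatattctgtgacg
Mup13: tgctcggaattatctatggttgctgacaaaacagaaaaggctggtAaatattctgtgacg
Mup20: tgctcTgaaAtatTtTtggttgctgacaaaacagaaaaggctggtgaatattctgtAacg
Mup3: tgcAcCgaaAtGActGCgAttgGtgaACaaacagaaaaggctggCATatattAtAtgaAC
Mup21: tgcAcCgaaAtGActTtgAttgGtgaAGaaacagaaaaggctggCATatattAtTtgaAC
Mup1, Mup11, Mup12 and Mup15 were identical here and Mup7 was identical to Mup17, whereas Mup3 and Mup21 differed from the commonest base at 18 and 17 positions.

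How far a 150-base read can be placed on 1 gene followed the same structure. None of the 835 windows of 150 bases in the Mup3 transcript and none of the 528 in the Mup21 transcript occurred unchanged in a transcript of another family row. In Mup20, 31.1% of windows did, all of them shared with the pseudogene Mup-ps19. In Mup17 the share was 40.4%, and in the other 6 genes it lay between 73.8% in Mup13 and 90.7% in Mup15. Values of Mup3, Mup21 and, in part, Mup20 can therefore be read as values of those genes, whereas the split of reads among the group of 7 is uncertain and depends on how the reads were counted, a step that the labels leave undescribed. The number of reads summed over the 10 genes does not depend on that split within the 10, whereas the FPKM sum does to a degree, since the deposited gene lengths run from 677 to 1584 bases. The 10 genes held 87.2% to 96.7% of the reads of all family rows in the 12 livers.

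Promoter windows of RefSeq (GRCm38.p6, 300 bases around the annotated start) were at hand for 6 of the 10 genes, Mup3, Mup7, Mup11, Mup15, Mup17 and Mup21. They are shown for their sequence, and no link between promoter sequence and level was tested. The motif TATATAA, searched on both strands as a form of the core promoter box, was found in 5 of the 6 against 3.24% of 32851 mouse promoters in the same table, and none was found in the Mup7 window, which ends upstream of the matching place in Mup11, Mup15 and Mup17. The motif TTCNNNGAA, the core of STAT5 sites, also searched on both strands and sharing no bases with the first, was found in none of the 6 windows and in 8.30% of all promoters. The 100 bases ending with this first motif, in capitals, are given for the 5 genes, each 5′ to 3′ on the minus strand: chr4:60662391-60662490 for Mup11, chr4:61439723-61439822 for Mup15, chr4:61595851-61595950 for Mup17, chr4:62087322-62087421 for Mup3 and chr4:62150843-62150942 for Mup21.
Mup11: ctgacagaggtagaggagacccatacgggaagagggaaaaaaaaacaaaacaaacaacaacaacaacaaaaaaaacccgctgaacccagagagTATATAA
Mup15: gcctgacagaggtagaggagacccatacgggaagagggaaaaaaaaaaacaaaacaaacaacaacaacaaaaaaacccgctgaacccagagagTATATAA
Mup17: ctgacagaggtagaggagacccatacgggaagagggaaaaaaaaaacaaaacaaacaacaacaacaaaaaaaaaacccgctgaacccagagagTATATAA
Mup3: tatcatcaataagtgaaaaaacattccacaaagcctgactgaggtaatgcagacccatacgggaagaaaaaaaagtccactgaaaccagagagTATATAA
Mup21: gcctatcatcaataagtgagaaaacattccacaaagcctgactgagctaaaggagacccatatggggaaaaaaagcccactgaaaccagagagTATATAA
The windows again formed 2 kinds. An unbroken run of adenine and cytosine ended shortly before the capitals in Mup11, Mup15 and Mup17 and was 42, 40 and 42 bases long there, against a longest run of 8 and 7 bases in Mup3 and Mup21; a run of at least 30 occurred in 0.314% of all promoters. Aligned promoter windows were 97.5% to 98.9% identical among Mup11, Mup15 and Mup17 and 93.3% identical between Mup3 and Mup21.

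The 24 libraries held 14717613 to 19538975 reads assigned to genes in liver and 15358324 to 20354594 in iWAT, recovered from the FPKM values (fragments per kilobase of transcript, scaled to library size). Mrs2 stood at 4.10, 5.21 and 4.21 FPKM in the livers labelled KO on WD and at 5.10, 4.10 and 5.11 FPKM in those labelled WT on WD, so it did not separate these livers by label: WT liver 2 was as low as the KO livers and KO liver 2 was above every WT liver. Chow-fed KO livers had 3.90 to 4.47 FPKM and chow-fed WT livers 5.87 to 6.50 FPKM. In iWAT every KO library was at most 2.25 FPKM and every WT library at least 2.74 FPKM. Results on WD are therefore given for the livers labelled KO and WT, and also without both livers numbered 2. Another 4 livers, KO livers 2 and 3 on WD, WT liver 2 on WD and KO liver 2 on chow, stood apart by reads of Mup-ps4, a family pseudogene with no read in the other 8; the main results are also given without them, beside the other family rows.

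The 10 genes together made up a larger part of the liver transcriptome in the livers labelled KO on WD than in any other group. Their summed level was 35989, 23095 and 30018 FPKM in KO livers on WD, against 3477, 6265 and 6199 FPKM in WT livers on WD. On chow the sum was 17352, 22036 and 16372 FPKM in KO livers, against 5866, 8505 and 13663 FPKM in WT livers. As a share of all recovered reads these sums were 2.98%, 1.87% and 2.35% in KO livers on WD, 0.354%, 0.590% and 0.613% in WT livers on WD, 1.36%, 1.64% and 1.31% in KO livers on chow and 0.457%, 0.730% and 1.11% in WT livers on chow. KO and WT livers did not overlap on either diet, and the lowest group was WT on WD.

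The mean sum was 29701 ± 6453 FPKM in KO livers on WD (SD, n = 3), 5.59 times the mean of the WT livers on WD, and the log2 difference was 2.51. Without both livers numbered 2 the log2 difference was 2.82. On chow the mean sum of the KO livers was 1.99 times that of the WT livers, with a log2 difference of 1.07. Between diets, KO livers on WD had 1.60 times the mean sum of KO livers on chow without overlap (log2 difference 0.66), whereas WT livers on WD had 0.569 times that of WT livers on chow (-0.78), with overlapping ranges. With all 48 family rows summed, KO livers on WD and on chow overlapped as well. In bulk tissue, fewer hepatocytes and less of these RNAs per hepatocyte cannot be told apart.

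**Figure D1:**
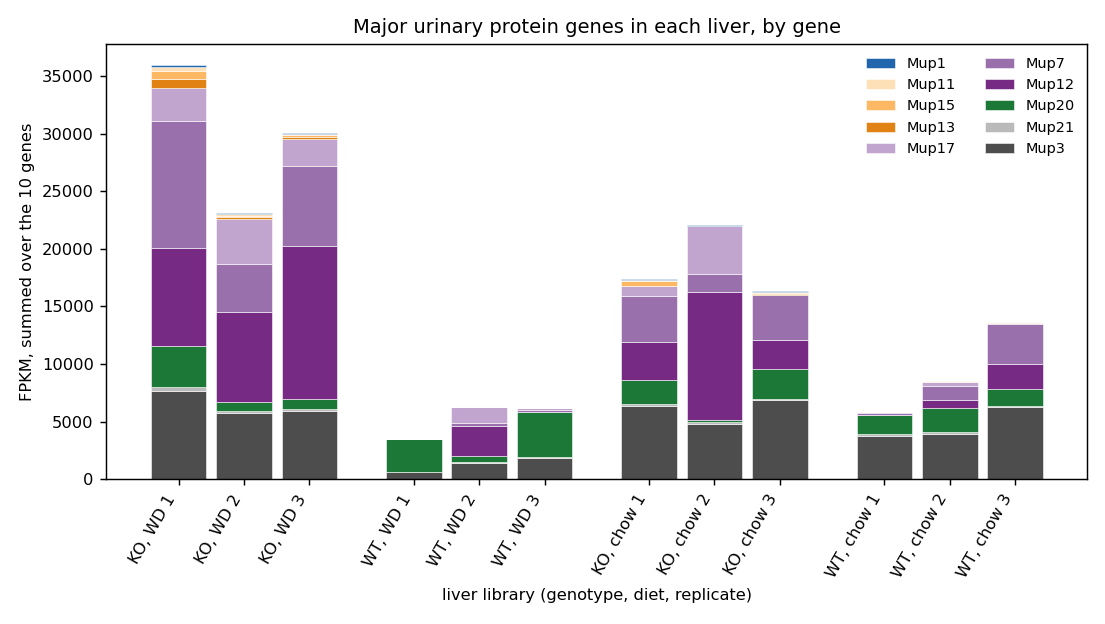
Stacked bars give the level of the 10 genes in each of the 12 livers, in FPKM, with 1 colour per gene; libraries are ordered KO on WD, WT on WD, KO on chow and WT on chow. The KO livers on WD reach 23095 to 35989 FPKM and the WT livers on WD 3477 to 6265 FPKM, and Mup20 fills most of the bar in WT livers 1 and 3 on WD.

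Mup3, whose reads are its own, was the steadiest of the abundant genes. It stood at 7677, 5736 and 5897 FPKM in KO livers on WD, against 596, 1423 and 1818 FPKM in WT livers on WD. Among chow-fed mice it had 6328, 4807 and 6861 FPKM in KO livers, against 3767, 3901 and 6230 FPKM in WT livers. The WT livers on WD were the 3 lowest of all 12, and the other 3 groups overlapped one another. By number of reads Mup3 ranked between 10th and 154th of all genes in every liver. On the log2(FPKM + 1) scale of the limma fit, its difference was 2.46 ± 0.37 (SE) between KO and WT on WD, -1.96 ± 0.37 between WD and chow in WT and 0.11 ± 0.37 between WD and chow in KO; on chow KO and WT differed by 0.40 ± 0.37 (limma adjusted p = 0.872).

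Mup21, also with reads of its own and the closest relative of Mup3 in sequence, was likewise lowest in WT livers on WD, at a lower level throughout. It stood at 294, 169 and 196 FPKM in KO livers on WD, against 24.2, 43.2 and 97.4 FPKM in WT livers on WD. On chow the values were 162, 180 and 121 FPKM in KO livers and 196, 187 and 164 FPKM in WT livers. Again all 3 WT livers on WD lay below the other 9 livers. Its log2 difference was 2.17 ± 0.41 between KO and WT on WD, -1.93 ± 0.41 between WD and chow in WT and 0.49 ± 0.41 between WD and chow in KO. On chow it was -0.25 ± 0.41 between KO and WT (limma adjusted p = 0.920). Without both livers numbered 2, the log2 difference between KO and WT on WD was 2.69 for Mup3 and 2.28 for Mup21.

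Mup20, the gene of darcin, was the member that did not follow the rest. It stood at 3603, 795 and 887 FPKM in KO livers on WD, against 2853, 533 and 3926 FPKM in WT livers on WD. The chow-fed livers had 2084, 118 and 2572 FPKM in KO livers, against 1579, 2116 and 1460 FPKM in WT livers. The groups overlapped in every comparison, with a log2 difference of -0.41 ± 1.15 between KO and WT on WD. Its level on the log2(FPKM + 1) scale had a Pearson correlation of -0.37 with the sum of the other 9 genes over the 12 livers, against 0.61 to 0.90 for each of the other 9 with the sum of its own other 9; the points share the same 12 libraries and, within the group of 7, reads. Without Mup20 the sum over the other 9 genes was 9.71 times as high in KO as in WT livers on WD (log2 difference 3.78), and 0.377 times as high in WT livers on WD as on chow (-1.79).

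Among the 7 near-identical genes, Mup12 and Mup7 had the highest mean levels over the 12 livers. Mup12 stood at 8490, 7823 and 13269 FPKM in KO livers on WD, against 0.470, 2649 and 24.6 FPKM in WT livers on WD. On chow the values were 3307, 11118 and 2514 FPKM in KO livers, against 25.7, 655 and 2140 FPKM in WT livers. Every KO liver lay above every WT liver on both diets.

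Mup7 stood at 11070, 4199 and 6982 FPKM in KO livers on WD, against 2.89, 246 and 177 FPKM in WT livers on WD. Among chow-fed mice it had 4024, 1577 and 3898 FPKM in KO livers, against 162, 1233 and 3458 FPKM in WT livers. KO livers on WD were above all other livers, and KO and WT livers overlapped on chow. Its log2 difference between KO and WT on WD was 6.95 ± 1.5, against 7.69 ± 2.34 for Mup12. Mup17 had 2806, 3866 and 2308 FPKM in KO livers on WD, against 0.0671, 1361 and 139 FPKM in WT livers on WD, the first of which is a single read. On chow it had 871, 4190 and 11.8 FPKM in KO livers and 111, 344 and 127 FPKM in WT livers, so that 1 KO liver lay below and 2 above all WT livers.

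The 4 least abundant genes of the group, Mup13, Mup15, Mup11 and Mup1, were near 0 in WT livers on WD. Mup13 stood at 837, 145 and 174 FPKM in KO livers on WD, against 0.127, 1.26 and 1.01 FPKM in WT livers on WD. On chow it had 16.5, 6.37 and 135 FPKM in KO livers and 1.41, 12.4 and 3.38 FPKM in WT livers. Mup13 was the single member in which, by FPKM, KO livers were all higher on WD than on chow and WT livers all lower on WD than on chow. The WT part rested on few reads, with 2, 20 and 16 on WD and 17, 159 and 41 on chow.

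Mup15 reached 682, 140 and 162 FPKM in KO livers on WD, against 0.0673, 1.41 and 9.36 FPKM in WT livers on WD. Mup11 reached 354, 117 and 116 FPKM in KO livers on WD, against 0.276, 1.57 and 3.37 FPKM in WT livers on WD. Mup1 reached 176, 105 and 25.7 FPKM in KO livers on WD, against 0.196, 5.63 and 3.24 FPKM in WT livers on WD. In all 3 genes the KO and WT livers on WD did not overlap, and KO liver 1 was the highest of the 12.

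**Figure D2:**
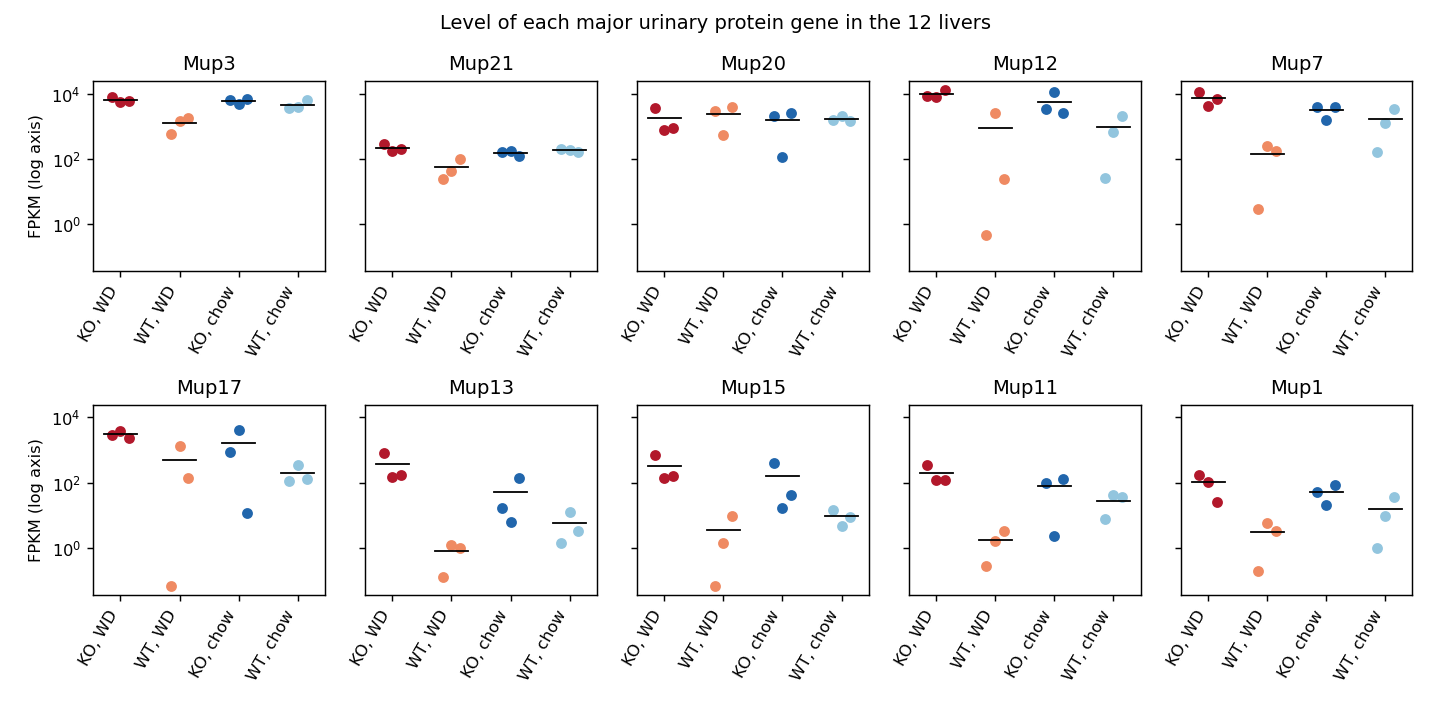
Points give the level of each gene in each liver, in FPKM on a log axis, and lines the mean of the 3 livers of a group (KO on WD, WT on WD, KO on chow, WT on chow). Mup3 and Mup21 vary little outside WT on WD, the group of 7 lies below 10 FPKM in WT liver 1 on WD, and Mup20 shows no separation.

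On WD the difference between KO and WT livers thus ran in 1 direction in 9 of 10 genes. The 9 genes other than Mup20 had every KO liver above every WT liver, which 25.4% of the 14019 genes tested also had. Of the 10, 8 passed an adjusted p of 0.05 in the fit over all genes (limma, Benjamini-Hochberg), all higher in KO, where 21% of all genes were called and 10.6% were called higher; the genes were chosen on this contrast, so nothing is read from these counts. Mup17 and Mup20 were not called. The median log2 difference of the 10 was 5.88, against 0.07 over all genes tested. Leaving out 1 liver at a time gave 6 to 9 called genes of the 10, beside 1354 to 2998 of all 14019. Mup12 dropped out in most of these fits, and Mup1 without KO liver 1 or WT liver 1.

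On chow none of the 10 genes passed the test between KO and WT livers. Of the 10 genes, 8 had a positive and 2 a negative log2 difference (Mup20 and Mup21), though the sign turned without KO liver 2 for Mup20 and Mup17 and without KO liver 1, KO liver 3 or WT liver 1 for Mup11; the values lay between -0.98 and 3.76 with SEs of 0.37 to 2.48, and none passed the test, with limma adjusted p-values of 0.863 to 0.942. No gene of the 14019 was called (0%), 675 genes, 1 of them a member (Mup15), had an unadjusted p under 0.05, edgeR called 0 genes and DESeq2 16, none of them a member. The lowest adjusted p was shared by several genes, among them Mup15, at 407, 16.9 and 42.0 FPKM in KO livers against 15.0, 4.81 and 8.94 FPKM in WT livers, a log2 difference of 2.80 ± 1.16 (limma adjusted p = 0.863). Mup12 and Mup15 had all KO livers above all WT livers on chow, against 4.59% of all genes; none was wholly below, against 4.34%. A p above the threshold does not show that the genotypes were alike.

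Between diets, most of the 10 fitted log2 differences were below 0 in WT livers and all were above 0 in KO livers, a difference between genotypes that was not tested. On the fitted log2(FPKM + 1) scale, WD livers of WT mice were lower than chow livers in 9 of 10 genes, from -4.00 for Mup7 to -1.52 for Mup1, with Mup20 at 0.10. Mean FPKM gave another picture for Mup17, with 500 ± 749 FPKM in WT livers on WD and 194 ± 130 FPKM in WT livers on chow, and for Mup12, with 891 ± 1522 FPKM in WT livers on WD and 940 ± 1086 FPKM in WT livers on chow (SD, n = 3 each). In the WT livers, 4 genes (Mup3, Mup11, Mup13 and Mup21) had all WD livers below all chow livers, against 19.2% of all genes, and Mup3 and Mup21 were past an adjusted p of 0.05, against 9.49% of genes called lower, 9.72% called higher and 19.2% called either way. With only the 6 WT livers in the fit, neither was called, beside 709 of the 14019 genes. In the same fit, WD livers of KO mice were higher than chow livers in 10 of 10 genes, from 0.11 for Mup3 to 3.41 for Mup13. Only Mup7 and Mup13 did not overlap, against 14.2% of all genes. None was called, against 0.15% of genes called higher and 0.421% called either way. Some signs turned over the alternative settings. In KO livers Mup3 ranged from -0.12 to 0.22 and Mup20 from -0.76 to 1.45. In WT livers Mup17 ranged from -3.80 to 1.39 and Mup20 from -0.46 to 0.98. These comparisons share their WD livers with the KO to WT comparison on WD and are given as values only.

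**Figure D3:**
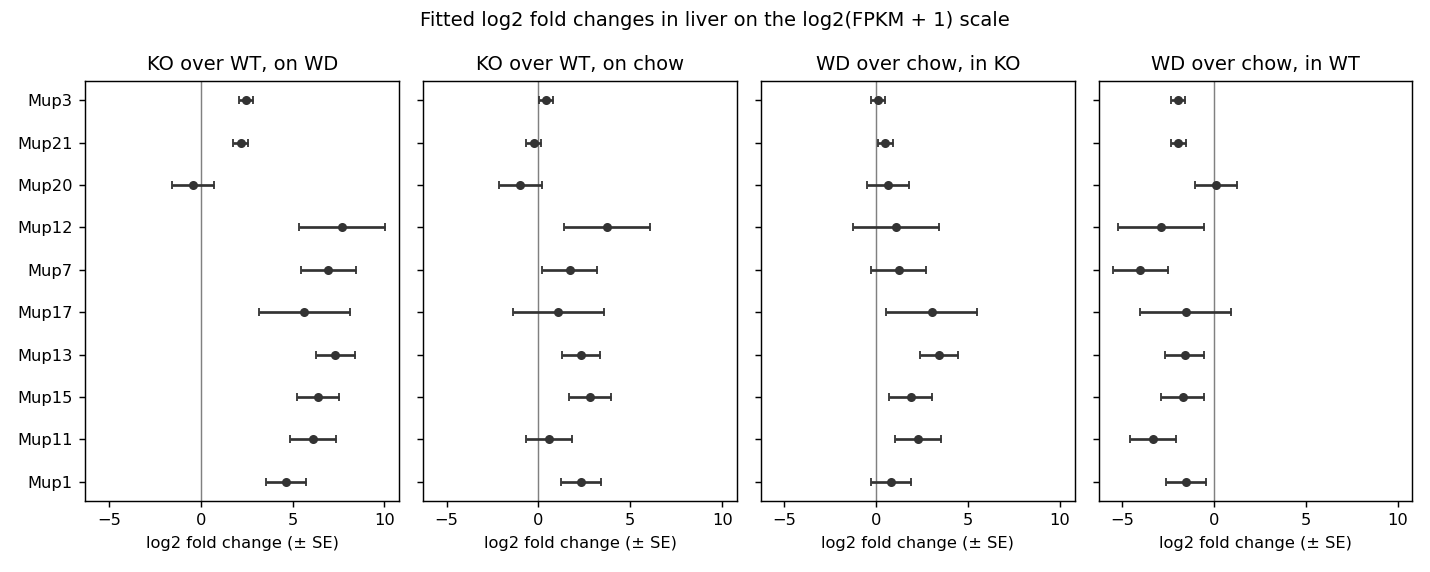
Points give the fitted log2 fold change of each gene on the log2(FPKM + 1) scale with its SE, in 4 comparisons of 3 against 3 livers: KO over WT on WD and on chow, and WD over chow in KO and in WT. On WD 9 of 10 genes lie to the right of 0, and in WT livers 9 of 10 lie to the left for WD over chow.

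Which gene led the family also differed from liver to liver. Mup20 made up 82.0% of the sum in WT liver 1 and 63.3% in WT liver 3 on WD. Mup12 led in KO livers 2 and 3 on WD (33.9% and 44.2%), in WT liver 2 on WD (42.3%) and in KO liver 2 on chow (50.5%), and Mup7 led in KO liver 1 on WD (30.8%). Mup3 led in the other 5 livers, all on chow, with 36.5% to 64.2%.

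The rows of the family outside the 10 genes showed a pattern that cut across the groups. Of these 38 rows, 17 had a mean of at least 1 FPKM over the livers, 10 of them coding genes (Mup16, Mup14, Mup18, Mup9, Mup10, Mup4, Mup2, Mup19, Mup5 and Mup8) and 7 pseudogenes (Mup-ps19, Mup-ps13, Mup-ps16, Mup-ps4, Mup-ps10, Mup-ps12 and Mup-ps20), and 6 rows were listed at 0 in every liver. The following rows were singled out after their values were seen. Mup-ps4 had 70 and 58 reads in KO livers 2 and 3 on WD, 114 reads in WT liver 2 on WD and 92 reads in KO liver 2 on chow, and 0 reads in the other 8 livers. Mup-ps10 had 42 to 124 reads in the same 4 livers and 0 or 1 in the other 8, and Mup9 had 1077 to 16490 reads against 5 to 128. Over all 54532 rows, these 3 were the only ones with at least 10 reads in each of the 4 livers and at most 0.2 of the lowest of them in each of the other 8; none had the opposite pattern.

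The same 4 livers were the 4 in which Mup12 led the sum and the 4 lowest for Mup20, at no more than 887 FPKM against at least 1460 FPKM in the other 8. Mup4 had 422 FPKM in KO liver 2 on chow, 24.4 FPKM in WT liver 2 on WD and 0 FPKM elsewhere, and Mup5 had 40.9 FPKM in KO liver 1 on WD and 0 FPKM elsewhere. Mup10 had 781 FPKM in KO liver 1 on WD, 26.6 to 43.8 FPKM in the 4 livers and at most 3.22 FPKM in the other 7. The 4 livers fell in 3 groups, 2 of them in KO on WD, and no liver of WT on chow was among them, so the pattern is not balanced over the groups; its part in the differences between groups was not tested. Leaving out these 4 livers leaves 1 KO and 2 WT livers on WD. The summed log2 difference between KO and WT on WD was then 2.95, that of Mup3 was 2.88 and that of Mup21 was 2.57. The spread of a lone KO liver cannot be estimated, so no calls are given there and whether those of the full fit hold is not known.

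**Figure D4:**
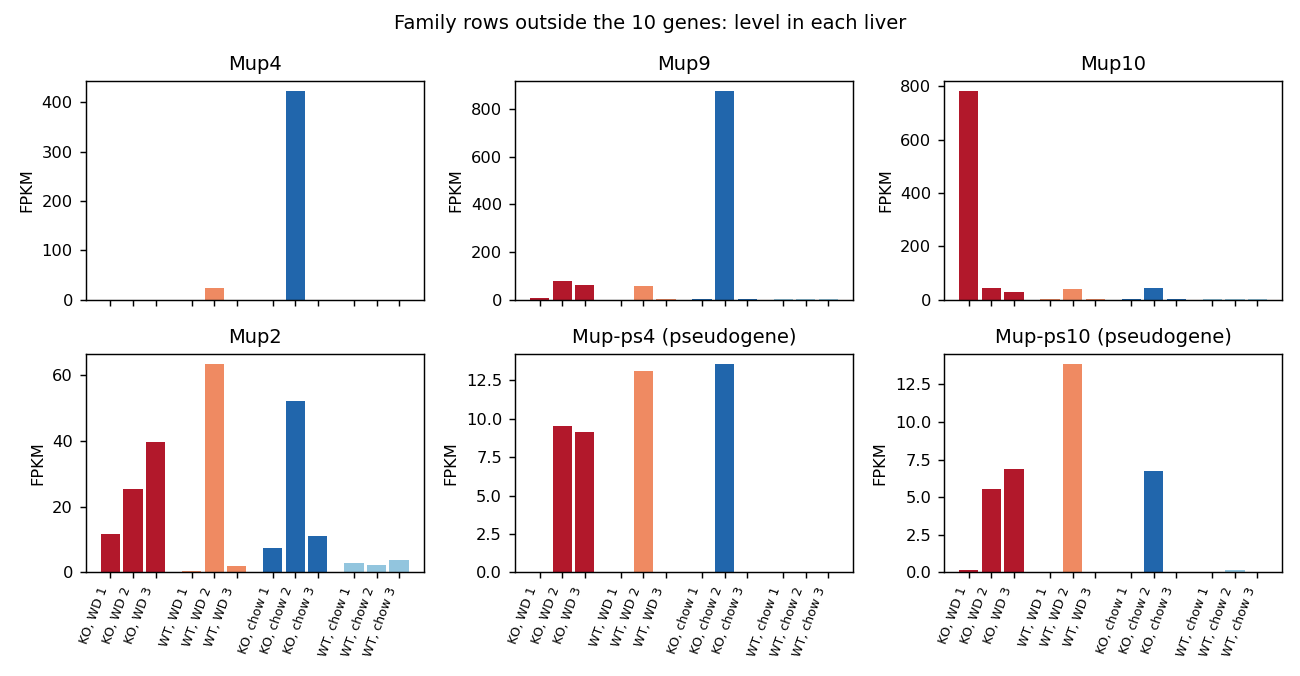
Bars give the level in FPKM of 6 family rows outside the 10 genes in each of the 12 livers, ordered KO on WD, WT on WD, KO on chow and WT on chow, each panel with its own linear axis. Mup-ps4 and Mup-ps10 are highest in KO livers 2 and 3 on WD, WT liver 2 on WD and KO liver 2 on chow and stay at or near 0 elsewhere, and Mup4 is at 0 in 10 of the 12 livers.

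The gene lists from here on were chosen with earlier results of these data known. Their counts and p-values therefore describe these livers and are not independent tests. Of 11 measured genes of growth hormone signalling, 4 rose in KO relative to WT livers on WD and none fell, against 10.6% of all genes called higher and 10.4% called lower. Ghr, the growth hormone receptor, was 101, 89.2 and 90.0 FPKM in KO livers against 41.0, 59.0 and 50.4 FPKM in WT livers (log2 difference 0.90 ± 0.16, limma adjusted p = 0.00477). Igf1, its secreted target, rose by 0.69 ± 0.16 (limma adjusted p = 0.0147), whereas Stat5b, the transcription factor downstream of the receptor, differed by 0.19 ± 0.17 (adjusted p = 0.472) and Socs2, a feedback inhibitor, by 0.58 ± 0.36 (adjusted p = 0.286).

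Of 17 measured genes with male-biased liver expression, 12 rose in KO relative to WT livers on WD, against 10.6% of all genes, and none fell. Hsd3b5, a steroid dehydrogenase of male liver, was 312, 101 and 138 FPKM in KO livers and 0.0804, 1.16 and 1.24 FPKM in WT livers (6.57 ± 0.43, limma adjusted p = 3.51e-05). Slco1a1, an organic anion transporter, averaged 136 ± 12.3 FPKM in KO livers and 9.82 ± 0.997 FPKM in WT livers (SD, n = 3 each); the log2 difference was 3.66 ± 0.21 and the limma adjusted p 1.43e-05. Elovl3, a fatty acid elongase, was called higher by 2.88 ± 0.91 (limma adjusted p = 0.0479), but its groups overlapped. It had 289, 31.6 and 240 FPKM in KO livers and 4.58, 36.7 and 26.2 FPKM in WT livers. Cyp4a12a differed by 1.91 ± 0.79 (adjusted p = 0.113). In WT livers on WD relative to chow, 10 of the 17 fell and none rose, against 9.49% of all genes called lower. Of 10 measured female-biased genes, 2 fell in KO relative to WT livers on WD, against 10.4% of all genes, and none rose. Cyp2b9 differed by -0.46 ± 1.08 (limma adjusted p = 0.804), while Cyp2b13 and Cyp3a41a were under the filter on low values.

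Of 15 measured transcription factors and regulators tied to these genes, 5 rose and none fell in KO relative to WT livers on WD. Among all genes tested, 10.6% were called higher and 10.4% lower. Cebpa, a hepatocyte transcription factor, rose by 0.64 ± 0.19 (limma adjusted p = 0.0365). Hnf4a differed by 0.52 ± 0.18 (limma adjusted p = 0.0630) and Zbtb20 by 0.04 ± 0.18 (limma adjusted p = 0.905). Zhx2, a regulator known to act on Mup genes in mouse liver, differed by 0.23 ± 0.12 (limma adjusted p = 0.196). In none of these 4 lists was a gene called between KO and WT on chow or between WD and chow in KO. These counts come from the same livers as the values of the 10 genes.

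Other secreted liver proteins are given beside the 10 genes. The 10 were chosen on this contrast, so the sizes of the differences are not compared. The shares of all genes called in this contrast were 10.6% higher and 10.4% lower. Of 9 measured lipocalins made in liver, 3 rose and 1 fell in KO relative to WT livers on WD. Rbp4, the retinol carrier, rose by 0.69 ± 0.16 (limma adjusted p = 0.0137) and Apom, an apolipoprotein, by 0.76 ± 0.21 (adjusted p = 0.0316), while Orm1, an acute-phase carrier, differed by 0.00 ± 0.29 (adjusted p = 0.999). Lcn2, the iron-siderophore binder induced in inflammation, was 3.66, 16.9 and 5.06 FPKM in KO livers against 219, 73.3 and 121 FPKM in WT livers, and fell by 3.98 on the log2 scale (adjusted p = 0.0133). Of 16 plasma protein genes 7 rose and none fell; Ttr rose by 0.80 ± 0.17 (adjusted p = 0.00916), Serpina1a by 0.79 ± 0.17 (adjusted p = 0.0103) and Apoa1 by 0.63 ± 0.20 (adjusted p = 0.0447), whereas Alb, albumin, differed by 0.05 ± 0.25 (adjusted p = 0.910).

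Markers of other liver cells moved in the opposite direction on WD. Of 10 macrophage markers 9 fell in KO relative to WT livers on WD, and of 8 fibroblast and stellate cell markers 8 fell. Of 4 tested cholangiocyte markers 4 fell, and of 4 tested lymphocyte markers 3 fell, while 5 of 9 hepatocyte markers rose. Over all genes tested, 10.4% were called lower there and 10.6% higher. Summed macrophage markers lay between 246 and 316 FPKM in KO livers on WD, between 573 and 1410 FPKM in WT livers on WD, between 185 and 218 FPKM in KO livers on chow and between 174 and 389 FPKM in WT livers on chow. Summed hepatocyte markers lay between 33349 and 41261 FPKM in KO livers on WD, 24871 and 32285 FPKM in WT livers on WD, 54168 and 65253 FPKM in KO livers on chow and 51300 and 79102 FPKM in WT livers on chow. No marker of these lists was at 0 in every liver. Summed pancreas acinar markers were 1178 FPKM in WT liver 2 on WD and 1486 FPKM in KO liver 1 on chow, against 5.45 to 24.4 FPKM in the other 10 livers. Skeletal muscle markers summed to 127 FPKM in WT liver 3 on chow, 52.9 FPKM in KO liver 2 on WD and 17.4 FPKM in KO liver 2 on chow. Elsewhere they summed to 0.313 to 8.40 FPKM. Adipocyte markers summed to 59.5 and 67.0 FPKM in KO livers 2 and 3 on WD, against 5.52 to 38.1 FPKM elsewhere. The part of all these markers in the differences of the 10 genes was not tested.

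Among 7745 genes outside the family with a mean of at least 3 FPKM, the 5 whose log2 level over the 12 livers was most like that of the sum were Slco1b2, an organic anion transporter of hepatocytes (Pearson r = 0.97), Lmtk2, Atrn, Mmd and Cyp27a1, the sterol 27-hydroxylase (r = 0.95 to 0.96). Slco1b2 stood at 439, 366 and 390 FPKM in KO livers on WD, against 161, 247 and 210 FPKM in WT livers on WD, without overlap. The 3 genes most opposite to the sum were Tmem176b (r = -0.97), Ctps2 and Fyb2 (r = -0.95 for both). Tmem176b stood at 78.4, 92.9 and 83.7 FPKM in KO livers on WD, against 224, 174 and 189 FPKM in WT livers on WD. The points share libraries and the difference between groups, so these correlations are descriptions.

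In iWAT the family gave few reads. Only Mup3 and Mup20 passed the filter on low values (a mean of 0.5 FPKM), Mup13 had 0 reads in every library, which allows up to 3 reads per library, and the sum over the 10 genes was 66 to 99 reads in KO libraries on WD and 15 to 35 reads in WT libraries on WD. Mup3 stood at 2.33, 2.56 and 2.87 FPKM in KO iWAT on WD (48, 56 and 70 reads), against 0.287, 1.19 and 0.558 FPKM in WT iWAT on WD (7, 29 and 13 reads), without overlap. It rose in KO relative to WT on WD by 1.13 ± 0.21 on the log2(FPKM + 1) scale (limma adjusted p = 0.0230), a comparison in which 4.25% of 14685 genes were called and 3.2% were called higher.

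The call for Mup3 in iWAT was lost without KO library 1 or 2, or WT library 1 or 3, and with only the 6 libraries of the comparison. On chow Mup3 stood at 1.23, 2.10 and 2.31 FPKM in KO iWAT and at 1.12, 0.704 and 1.05 FPKM in WT iWAT, a log2 difference of 0.54 ± 0.21 that did not pass the test (limma adjusted p = 0.802; 0% of genes called). All 3 KO libraries lay above all 3 WT libraries there, as in 5.86% of all genes, and Mup20 was in neither order, with 4.95% of genes wholly below. The diet comparisons of Mup3 did not pass the test either, with log2 differences of 0.34 ± 0.21 in KO (limma adjusted p = 0.638; 0% of genes called) and -0.25 ± 0.21 in WT (adjusted p = 0.509; 2.12% of genes called, 0.769% lower). In KO its WD libraries were all above its chow libraries, as in 8.63% of genes, against 6.45% wholly below. Mup20 stood at 0.950, 0.105 and 0.801 FPKM in KO iWAT on WD and at 0.330, 0.142 and 0.840 FPKM in WT iWAT on WD, with overlapping groups (0.16 ± 0.27, limma adjusted p = 0.814).

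Hepatocyte markers in iWAT stood beside these values as follows. Summed over 9 markers they were 432 to 532 FPKM in KO iWAT on WD and 238 to 256 FPKM in WT iWAT on WD, mostly from Cyp2e1 and Glul, which fat also expresses. Cyp2e1 was 282, 203 and 192 FPKM in KO and 13.3, 70.3 and 32.8 FPKM in WT iWAT on WD (2.78 ± 0.46, limma adjusted p = 0.0209). Alb was 13.8, 12.8 and 21.4 FPKM in KO and 10.7, 11.3 and 15.9 FPKM in WT iWAT on WD (0.30 ± 0.30, limma adjusted p = 0.642). Apoa1 differed by 0.28 ± 0.25 (limma adjusted p = 0.602) and Ttr by 0.07 ± 0.19 (limma adjusted p = 0.899). Glul differed by 0.34 ± 0.22 (limma adjusted p = 0.436) and Trf by -0.30 ± 0.35 (limma adjusted p = 0.694). Tat, Cps1 and Hal were under the filter on low values. Whether traces of liver RNA had a part in the level of Mup3 was not tested.

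**Figure D5:**
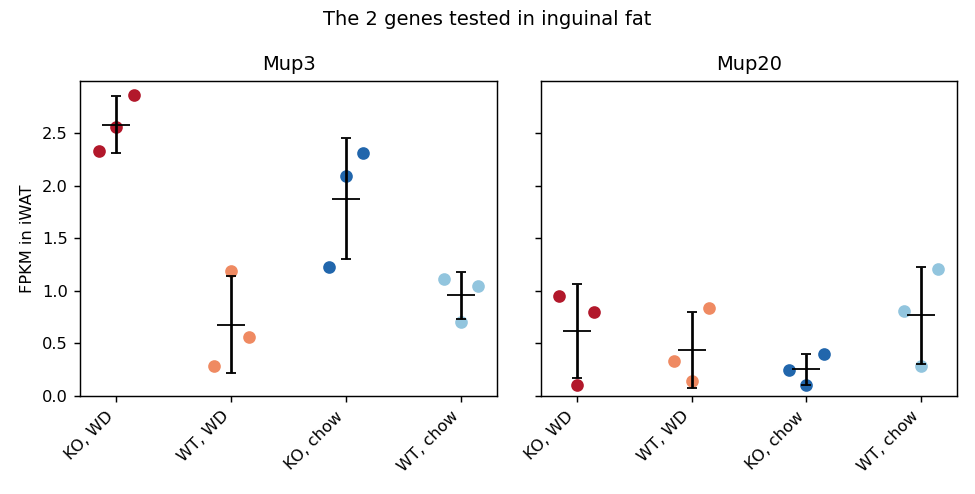
Points give the FPKM of Mup3 and Mup20 in each iWAT library, with the mean and SD of the 3 libraries of each group (KO on WD, WT on WD, KO on chow, WT on chow). Mup3 lies between 2.33 and 2.87 FPKM in KO on WD and between 0.287 and 1.19 FPKM in WT on WD, and Mup20 overlaps between all groups.

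In the authors' deposited table of KO against WT livers on WD, 7 of the 10 genes were listed (Mup1, Mup3, Mup7, Mup11, Mup13, Mup15 and Mup21), with log2 fold changes from 1.96 for Mup21 to 8.88 for Mup13. In the authors' deposited table for livers on chow 2 were listed, Mup13 at 3.21 (adjusted p = 0.859) and Mup15 at 4.03 (adjusted p = 0.363). In each of the authors' deposited tables for iWAT the single member listed was Mup3, at 1.95 on WD (adjusted p = 0.00879) and 0.98 on chow (adjusted p = 0.736).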

How the data were processed

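Gene expression was read from the FPKM table that the authors deposited, with 24 libraries of 3 mice per group. Tools named by the submitters' processing notes, without their roles, are HISAT2 2.0.5 and DESeq2 1.20.0, with the build mm10; how reads were counted, and whether by strand, is not given in the sources used here. Gene lengths deposited in the same table and low values gave whole read counts, within 0.01 reads for all 540911 values above 0, and equal to the counts that the authors deposited for 64434 of 64434 values compared; 56 per-sample columns of their comparison tables were not used otherwise. The log2 fold changes and p-values in those tables were deposited by the authors, per the file headers.

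The 10 genes and all gene lists were chosen with earlier results of these data known. Genes named are the members, other family rows by level, the 8 most like or opposite genes and 4 fixed genes of each list, 1 of which is not reported here. Genes with a mean of at least 0.5 FPKM over a tissue's 12 libraries were fitted as log2(FPKM + 1) with limma 3.58.1 (R 4.3.3), 4 groups in 1 fit per tissue, robust with a variance trend; Benjamini-Hochberg over all genes tested, adjusted p under 0.05 called. Folds on this scale understate changes of low genes. The summed level is the sum of FPKM per library, without a test. Alternatives were count tests of those reads with edgeR 4.0.16 or DESeq2 1.42.0, other scalings, filters and pseudocounts, and omitted libraries; leaving out both WD livers numbered 2 or the 4 livers with Mup-ps4 reads, and summing without Mup20 or over all family rows, were chosen after seeing the data. The fit was tested on simulated data. Windows and identities came from GENCODE vM21 transcripts, 1 per gene, aligned with Biopython 1.88. Counts limit precision by counting error only; the replicates are separate mice per the labels' design text.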

Additional observations from a re-analysis of the deposited data

Results flagged for a closer look

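Mup13 stood out because its livers moved in opposite directions with diet by FPKM. All 3 KO livers on WD (837, 145 and 174 FPKM) lay above all 3 KO livers on chow (16.5, 6.37 and 135 FPKM), with a log2 difference of 3.41 ± 1.05 (SE). All 3 WT livers on WD (0.127, 1.26 and 1.01 FPKM) lay below all 3 WT livers on chow (1.41, 12.4 and 3.38 FPKM), with a log2 difference of -1.60 ± 1.05. The difference between the 2 diet effects was 5.01 on the log2(FPKM + 1) scale and was not tested. Of the 14019 genes tested, 142 (1.01%) showed such an opposite separation of WD and chow livers in the 2 genotypes.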

How the results depend on the processing

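Between KO and WT livers on WD, 6 to 9 of the 10 genes were called when 1 liver was left out, beside 1354 to 2998 of all 14019 genes tested. With edgeR 7 were called, beside 2586 of all genes. DESeq2 also called 7, beside 3257 of all genes, and gave Mup12 no adjusted p. Without both livers numbered 2 it was 8, beside 2369 of all genes. Over all settings but that without the 4 livers with Mup-ps4 reads, which leaves 1 KO liver, 1354 to 3257 genes were called in that comparison. In WT livers on WD against chow, 2 genes were called in the fit reported, beside 2693 of all 14019 genes, and 4 with DESeq2, beside 3223. With only the 6 libraries of the comparison it was 0, beside 709. Leaving out 1 liver gave 2 to 3, beside 1425 to 2791. Without the 4 livers with Mup-ps4 reads, the log2 difference there was -2.11 for Mup3 and -1.88 for Mup21. For KO against WT iWAT on WD, 1 gene (Mup3) was called in the fit reported, beside 624 of all 14685 genes. With only the 6 libraries it was 0, beside 16, and with 1 library left out 0 to 1, beside 16 to 871. The summed log2 difference between KO and WT on WD was 1.75 after quantile normalization, 3.78 without Mup20 and 2.95 without the 4 livers; WT livers on WD against chow gave -0.15 after quantile normalization and -1.79 without Mup20, and KO livers 1.09 without the 4 livers. Differences in sign on chow between KO and WT were confined to 3 genes: without the 4 livers, Mup20 gave 0.45 and Mup17 -0.69, and with 1 liver left out Mup20 ranged from -1.77 to 0.45, Mup17 from -0.69 to 3.49 and Mup11 from -0.39 to 2.29. The cause of these shifts was not tested.

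Same-numbered libraries deviated together in every pair only between KO and WT iWAT on chow, and there not every library was closest to its own number. With the replicate number as a block, 8, 0, 2 and 0 of the 10 genes were called in liver (KO to WT on WD and on chow, WD to chow in WT and in KO) and 1, 0, 0 and 0 in iWAT, as without the block. In the same order, 2565, 0, 2319 and 39 of all genes were called in liver and 687, 1, 155 and 0 in iWAT. Filters at a mean of 5 FPKM left no member in iWAT.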

Other observations

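The pseudogene Mup-ps21, which is not among the 10 genes and was singled out after its values were seen, had its highest level in the fat of WT mice on WD. It stood at 0.232, 0.109 and 2.34 FPKM in KO iWAT on WD, against 8.40, 10.4 and 13.2 FPKM in WT iWAT on WD, without overlap. On chow it was at most 0.652 FPKM in KO iWAT and at most 0.346 FPKM in WT iWAT. In the authors' deposited table for iWAT on WD its log2 fold change between KO and WT was -3.55 (adjusted p = 0.000774), opposite in sign to that of Mup3 in the same table.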
